A study of Mus musculus with 16 samples.

Results

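The promoters of Rheb, Gm15552, 1810030J14Rik, Emx2os, Emx2, Gnai2, Cntnap5c and Slitrk3 were examined contact by contact in promoter-capture Hi-C of mouse cells. They were chosen by their mean difference in contact score between TET_KO and TET_WT, among the largest of all promoters, so that difference is given here as a description and carries no test. Of the 8 names, 7 named a captured promoter fragment (a bait). Emx2 had none of its own, since its start lies inside the Emx2os bait on chromosome 19. The 7 baits had 139 listed contacts, of 260860 contacts of 20017 baits in the whole table.

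Promoter-capture Hi-C cuts crosslinked chromatin with HindIII, joins fragments that lie close together, and enriches the joined pairs that hold a promoter. The cells were embryonic stem cells (ESC, day 0, kept in 2i and Lif) and epiblast-like cells (EpiLC) at day 2 of their differentiation. TET_KO is a line without Tet1, Tet2 and Tet3, and TET_WT is its parental line; DNMT_KO lacks Dnmt1, Dnmt3a and Dnmt3b, and DNMT_WT is its parental line. The labels give 2 samples for each of the 8 groups of line and stage, 16 in all, but the values come as 1 column per group. Each genotype is represented by a single line, and no column has a spread or a known depth, so a difference between 2 columns cannot be set against replicate error. The stage comparison alone has replicates, the 4 lines. Contacts do not measure transcription, so neither the cell identity nor the loss of the targeted genes could be checked against expression.

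TET enzymes oxidise methylated cytosine in CG dinucleotides and so start its removal, while DNMT enzymes place and maintain the mark. Promoters touch distant fragments through loops and shared domains, and some proteins that hold such loops are known to bind DNA according to its methylation. Promoters rich in CG are mostly unmethylated in embryonic stem cells, while those poor in CG are often methylated.

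The 250 bases before the gene start are shown for the 4 genes that matched the RefSeq promoter sequences used here (GRCm38.p6). The enzymes removed in these lines act on CG, and the promoters differ in how much of it they hold. CG is in capitals; it reads the same on both strands. Rheb lies at chr5:24842362-24842611 on the minus strand, Emx2 at chr19:59458440-59458689 on the plus strand, Slitrk3 at chr3:73057067-73057316 on the minus strand, and Mptx1, the current symbol of 1810030J14Rik, at chr1:174330268-174330517 on the plus strand.
Rheb: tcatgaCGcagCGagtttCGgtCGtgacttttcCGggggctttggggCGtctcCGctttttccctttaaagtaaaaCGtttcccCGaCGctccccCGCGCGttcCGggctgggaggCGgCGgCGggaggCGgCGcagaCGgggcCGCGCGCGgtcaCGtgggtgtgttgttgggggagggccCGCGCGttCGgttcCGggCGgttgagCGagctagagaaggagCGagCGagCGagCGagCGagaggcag
Emx2: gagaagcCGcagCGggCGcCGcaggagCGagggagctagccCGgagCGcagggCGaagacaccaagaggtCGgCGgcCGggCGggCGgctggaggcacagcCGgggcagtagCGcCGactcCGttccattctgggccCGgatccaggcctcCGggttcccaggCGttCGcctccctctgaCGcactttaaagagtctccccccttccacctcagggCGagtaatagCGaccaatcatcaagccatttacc
Slitrk3: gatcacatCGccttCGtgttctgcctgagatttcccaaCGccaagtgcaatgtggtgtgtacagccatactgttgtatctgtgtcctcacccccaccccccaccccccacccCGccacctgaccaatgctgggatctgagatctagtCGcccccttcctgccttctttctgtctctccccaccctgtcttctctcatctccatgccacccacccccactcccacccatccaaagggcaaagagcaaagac
Mptx1: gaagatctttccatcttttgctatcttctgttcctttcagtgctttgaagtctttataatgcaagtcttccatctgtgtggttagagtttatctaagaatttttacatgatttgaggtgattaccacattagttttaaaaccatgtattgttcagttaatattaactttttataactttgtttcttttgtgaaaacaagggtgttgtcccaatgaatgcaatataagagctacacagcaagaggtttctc
Rheb held 37 CG, a number reached by 2.2% of 32851 RefSeq promoters, and Emx2 held 24, reached by 12.0%. Slitrk3 held 5, close to the median of 6 over all promoters; its window begins 84 bases beyond its bait. Mptx1 held 0, as did 7.87% of promoters. These 4 promoters thus ranged from no CG to among the most CG-rich. Gnai2, Cntnap5c, Emx2os and Gm15552 matched no promoter sequence, and their CG was not counted. Methylation itself was not analysed here.

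The values are CHiCAGO scores, which rate a contact against the number of read pairs its distance would give by chance, and 5 is the usual threshold for calling one. At 5 or more, the 7 baits had 91 of their 139 contacts in TET_KO ESC and 100 in TET_KO EpiLC. They had 6 in TET_WT ESC and 9 in TET_WT EpiLC. In the columns that the choice did not use, they had 28 in DNMT_WT and 7 in DNMT_KO at the ESC stage, and 11 in DNMT_WT and 14 in DNMT_KO at the EpiLC stage. DNMT_WT ESC was therefore the highest of the columns outside TET_KO. Over the whole table the columns were close to each other, from 31.9% of contacts in DNMT_KO ESC to 38.6% in TET_KO EpiLC. Over contacts of more than 1 Mb they were not. There the share ran from 10.0% in DNMT_WT ESC to 33.5% in DNMT_WT EpiLC. It was 13.6% and 21.8% in TET_WT and 20.3% and 25.5% in TET_KO, in ESC and EpiLC. In all, 93 of the 139 contacts (66.9%) reached 5 in a TET_KO column and in no other, against 14.2% of all contacts, and in 90 (64.7%) both TET_KO scores exceeded the other 6, against 6.81%; both follow from the choice.

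These contacts were long. A local contact here is one within 1 Mb on the same chromosome: 91 were local (65.5%), 47 lay over 1 Mb away (33.8%) and 1 joined another chromosome, against 91.3% local over the whole table. The median distance of a bait's contacts was 104.6 kb for Gnai2, 570.3 kb for Rheb, 626.7 kb for Gm15552, 726.7 kb for Emx2os, 1064.8 kb for 1810030J14Rik, 1111.2 kb for Cntnap5c and 3011.8 kb for Slitrk3. The median over all contacts on 1 chromosome was 274.6 kb. Gnai2 alone had the shorter median. Another bait stood at the other end of 5 contacts (3.6%, against 9.12% of all contacts), so most of these fragments were not captured promoters.

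A promoter's value is the mean asinh of its scores after the columns were scaled to each other; asinh behaves as a logarithm for high scores, a score of 5 gives 2.31, and a difference of 0.693 is a doubling of a high score. In the plot of promoter values, the baits differed in how far the TET_KO columns stood from the rest. The lower TET_KO value lay above the highest of the other 6 by 2.02 for Gm15552 and 1.85 for Rheb. For 1810030J14Rik the gap was 0.70, for Cntnap5c 0.62, for Slitrk3 0.48 and for Emx2os 0.35. For Gnai2 it was -0.06, since DNMT_WT ESC was the highest column. Of all promoters, 8.11% had both TET_KO values above the other 6.

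**Figure D1:**
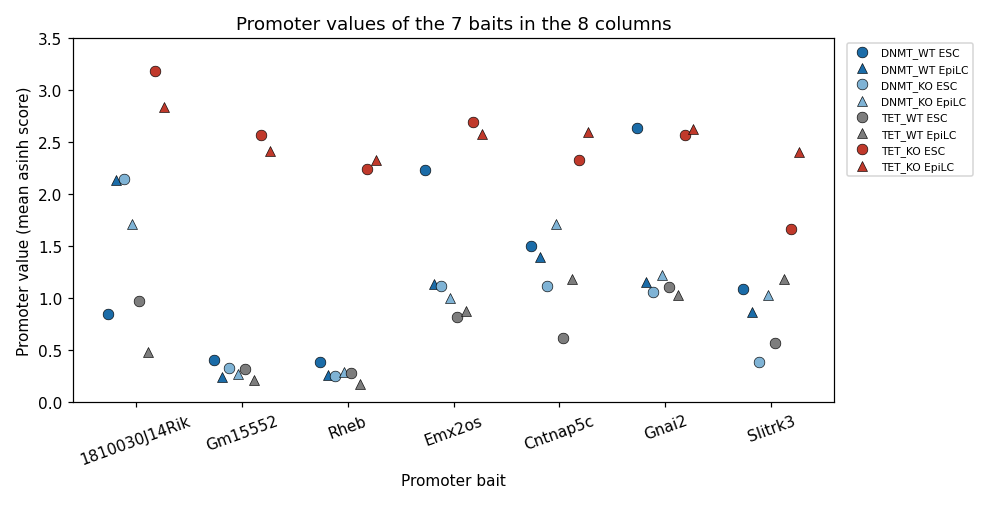
Promoter value (mean asinh score, vertical axis) of each of the 7 baits in the 8 columns; circles are ESC, triangles EpiLC, colours the 4 lines, and each point is 1 column without error. The TET_KO points stand far above all others for Gm15552 and Rheb, by 2.02 and 1.85, and level with DNMT_WT ESC for Gnai2.

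Rheb is the small GTPase that activates the growth kinase complex mTORC1. Its bait is chr5:24839664-24843098 (3.44 kb) and holds the gene start. The promoter value of Rheb was 2.24 in TET_KO ESC and 2.33 in TET_KO EpiLC. It was 0.28 in TET_WT ESC, 0.17 in TET_WT EpiLC, 0.39 in DNMT_WT ESC, 0.26 in DNMT_WT EpiLC, 0.25 in DNMT_KO ESC and 0.29 in DNMT_KO EpiLC. All 6 columns other than TET_KO were near the floor and none overlapped it. TET_KO exceeded TET_WT by 1.97 in ESC and by 2.16 in EpiLC, while DNMT_KO differed from DNMT_WT by -0.14 and 0.03.

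Gm15552 is a predicted gene whose bait, chr5:24867714-24874147 (6.43 kb), lies 24.6 kb from that of Rheb and within Prkag2, which encodes a regulatory subunit of the energy sensor AMPK. In TET_KO its value was 2.57 in ESC and 2.41 in EpiLC. It was 0.32 and 0.21 in TET_WT, 0.40 and 0.24 in DNMT_WT, and 0.33 and 0.27 in DNMT_KO, in ESC and EpiLC. As at Rheb, both TET_KO columns stood apart and the rest were near the floor.

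The Rheb and Gm15552 baits touched the same fragments. They shared 20 other ends, 87.0% of the 23 of Rheb and 76.9% of the 26 of Gm15552. Of the Rheb contacts, 22 lay in a block of 165.6 kb, chr5:24211575-24377158, and 18 of these other ends overlapped no RefSeq gene. The remaining ends overlapped the lncRNA genes Gm33476 (2 ends) and Gm15587, the cardiac potassium channel gene Kcnh2 and the endothelial nitric oxide synthase gene Nos3. The 25 Gm15552 contacts in that region also reached Gm15589 and the autophagy gene Atg9b, and 20 overlapped no gene.

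Single contacts show how sharply the columns parted. The Gm15552 contact with the highest TET_KO ESC score, at -637 kb (negative distances lie at lower coordinates), scored 15.8 in TET_KO ESC and 10.1 in TET_KO EpiLC. It was listed at 0 in 5 of the other columns and at 0.31 in DNMT_KO EpiLC. The same fragment, -608 kb from Rheb, scored 7.28 and 5.56 with the Rheb bait in TET_KO, 1.88 in DNMT_WT ESC, 0.04 in TET_WT ESC and 0 elsewhere. Over all 23 Rheb contacts, the scores ranged from 1.54 to 8.32 in TET_KO ESC (median 5.08) and from 3.03 to 7.89 in TET_KO EpiLC (median 5.56). The median was 0 in each of the other 6 columns. In the 26 Gm15552 contacts the medians were 8.2 and 5.98 in TET_KO and 0 in the other 6. The only Rheb contact to reach 5 outside TET_KO was the one at -220 kb, at Smarcd3, a chromatin remodeller subunit gene. It scored 5.16 in DNMT_KO EpiLC against 4.76 in TET_KO EpiLC. At -564 kb the DNMT_WT ESC score of 1.69 exceeded that of TET_KO ESC, 1.54.

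**Figure D2:**
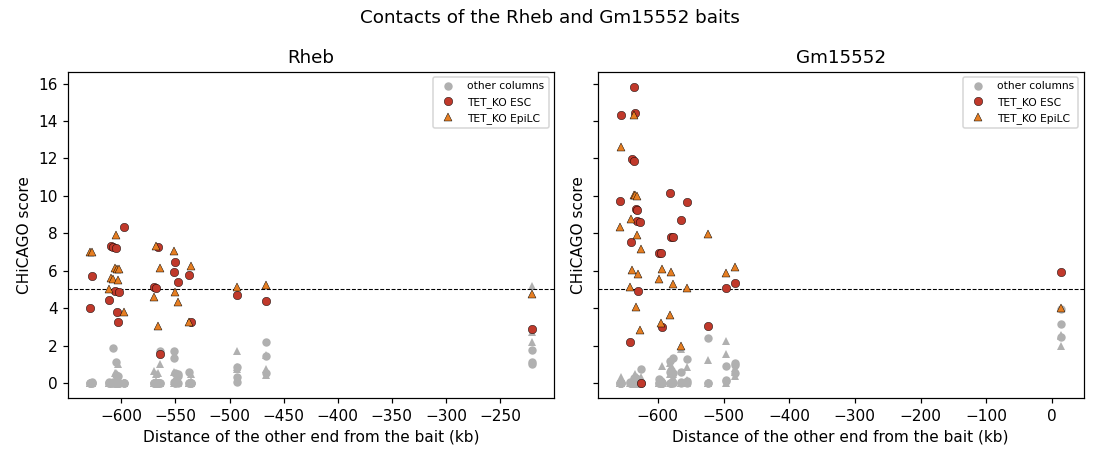
CHiCAGO score (vertical axis) of each listed contact of the Rheb and Gm15552 baits against the distance of its other end from the bait in kb; red circles are TET_KO ESC, orange triangles TET_KO EpiLC, grey the other 6 columns, and the dashed line is a score of 5. The TET_KO points form a group between -658 and -466 kb, where the grey points reach at most 2.42.

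Other baits of the region had contacts with the same block. Between the block and the 500 kb on either side of Rheb, 14 baits other than the members had 145 listed contacts. Of these, 83 reached 5 in TET_KO ESC and 114 in TET_KO EpiLC. The count was 3 in TET_WT ESC, 10 in TET_WT EpiLC, 2 in DNMT_WT ESC, 6 in DNMT_WT EpiLC, 2 in DNMT_KO ESC and 9 in DNMT_KO EpiLC. Their median score was 5.29 in TET_KO ESC and 5.98 in TET_KO EpiLC, and between 0.47 and 1.44 in the others. The block was defined by TET_KO scores of the Rheb bait and every listed contact reaches 5 in some column, so contacts can enter this count through TET_KO, and it is a description. Of the 18 promoters other than Gm15552 within 500 kb of Rheb, 15 had a higher value in TET_KO at both stages, against 32.6% of all promoters. Their median difference was 0.41 in ESC (from -0.63 to 0.85) and 0.69 in EpiLC (from -0.05 to 1.22), with 0.03 and 0.03 for DNMT_KO against DNMT_WT. Neighbouring baits share fragments and columns, so they do not count as separate observations.

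The nearest promoters differed in size of change. Smarcd3, on the side of the block at -241 kb, was 0.38 higher in TET_KO in ESC and 0.77 in EpiLC. On the other side, 4933426D04Rik, 31.0 kb beyond Gm15552, was 0.80 and 1.08 higher. Most promoters of the region differed the same way as Rheb and Gm15552. That these 2 held its largest differences follows from the choice.

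**Figure D3:**
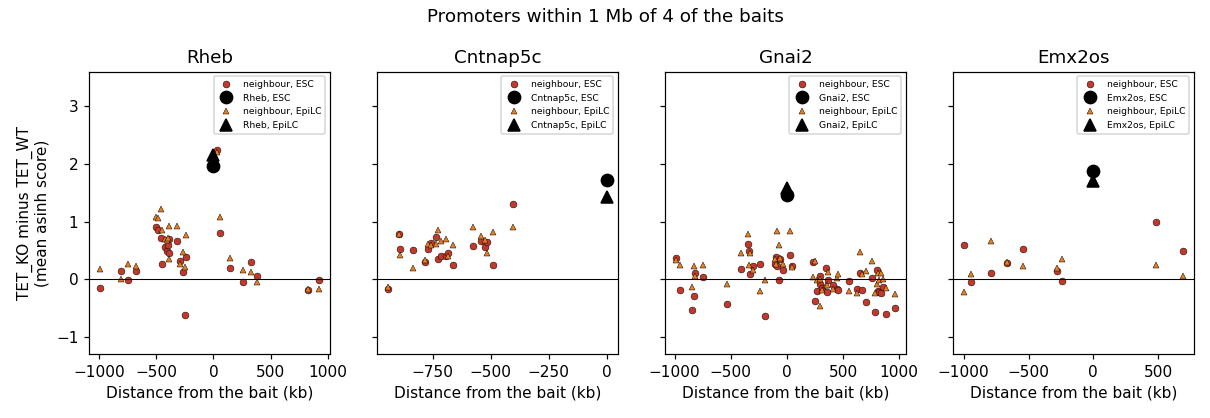
Difference of promoter value between TET_KO and TET_WT (mean asinh score, vertical axis) for each promoter within 1 Mb of the Rheb, Cntnap5c, Gnai2 and Emx2os baits against its distance in kb; circles are ESC, triangles EpiLC, and black symbols the bait itself. Around Rheb and Cntnap5c 18 of 26 and 18 of 19 neighbours lay above 0 at both stages. Around Gnai2 18 of 48 did and around Emx2os 6 of 9, against 32.6% of all promoters.

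Gnai2 encodes an inhibitory alpha subunit of heterotrimeric G proteins. Its bait is chr9:107629999-107645742 and is long (15.74 kb, longer than 94.1% of baits). Its promoter value was 2.57 in TET_KO ESC, 2.62 in TET_KO EpiLC and 2.63 in DNMT_WT ESC. It was 1.11 and 1.03 in TET_WT, 1.06 and 1.22 in DNMT_KO, in ESC and EpiLC, and 1.15 in DNMT_WT EpiLC. The columns fell into a high group of 3 and a low group of 5 with no value between. TET_KO exceeded TET_WT by 1.46 in ESC and 1.58 in EpiLC, and DNMT_KO was below DNMT_WT in ESC by as much: the value fell by 1.58, against a difference of 0.07 in EpiLC.

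The same contacts carried the Gnai2 value in the 3 high columns. Of 11 contacts, 8 reached 5 in DNMT_WT ESC, 8 in TET_KO ESC and 10 in TET_KO EpiLC, and 0 in each of the other 5 columns. The contact at 101 kb scored 13.8 in DNMT_WT ESC, 12.8 in TET_KO ESC and 12.5 in TET_KO EpiLC. It scored 1.78 to 3.38 in the rest. Of the contacts, 8 lay in a block at chr9:107677176-107754211, with 5 other ends in Rbm5, a splicing regulator gene, and 1 in Gnat1, the transducin alpha subunit of rods. A pair lay on the other side at -284 and -276 kb. Only the DNMT_WT ESC and TET_KO columns were high there too, at 3.79 and 5.11 in DNMT_WT ESC, 4.57 and 7.27 in TET_KO ESC and 5.72 and 6.91 in TET_KO EpiLC, against at most 1.35 elsewhere.

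Around Gnai2 the contacts of other baits did not share the split of the columns, and the promoter differences varied with distance. Between the block and the 500 kb on either side of the bait, 13 other baits had 28 contacts, of which 10 to 13 reached 5 in every column except TET_KO EpiLC, where 20 did. Of 48 promoters within 1 Mb, 18 were higher in TET_KO at both stages, against 32.6% of all promoters. The median difference was 0.02. The nearest on each side were BY080835 at -36.8 kb and Slc38a3, an amino acid transporter gene, at 30.3 kb. BY080835 differed by 0.16 and 0.26, and Slc38a3, on only 4 contacts, by 0.42 and 0.83.

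Emx2os is the antisense transcript of Emx2, a homeobox gene of forebrain and urogenital development, and the bait chr19:59449855-59461532 (11.68 kb) holds the starts of both, so their contacts cannot be told apart. Its promoter value was 2.69 in TET_KO ESC, 2.58 in TET_KO EpiLC and 2.23 in DNMT_WT ESC. It was 0.82 and 0.88 in TET_WT, 1.12 and 1.00 in DNMT_KO, in ESC and EpiLC, and 1.13 in DNMT_WT EpiLC. The split into 3 high and 5 low columns was the one seen at Gnai2. TET_KO exceeded TET_WT by 1.87 in ESC and 1.70 in EpiLC; in DNMT_KO ESC the value fell by 1.10 against DNMT_WT.

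All 28 contacts of the Emx2os bait lay in 1 block of 249.9 kb, chr19:60111476-60361418. At 5 or more were 21 contacts in each TET_KO column, 13 in DNMT_WT ESC, and between 1 and 4 in the other columns. The block holds the lncRNA gene E330013P04Rik, which overlapped 10 other ends, the lncRNA genes Gm46663 and Gm41882 with 1 each, and no gene at 16. The fragment with the start of E330013P04Rik, itself a bait, at 689 kb, scored 16.3 in TET_KO ESC and 22.3 in TET_KO EpiLC. It also scored 12.2 in DNMT_WT ESC, 14.2 in DNMT_WT EpiLC, 15.0 in DNMT_KO EpiLC and 15.3 in TET_WT EpiLC, and was lower only in TET_WT ESC (6.37) and DNMT_KO ESC (5.23). A fragment nearby was unlike it. At 699 kb the scores were 17.3 and 11.3 in TET_KO, 5.53 in DNMT_WT ESC, 1.34 in TET_WT EpiLC and 0 in the other 4 columns. The contact at the lncRNA start was thus shared by the lines, while that at 699 kb was high in TET_KO and, less so, in DNMT_WT ESC.

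Other baits near Emx2os reached the block in all lines. The 5 other baits had 70 contacts between the 2 regions, of which 43 reached 5 in TET_KO ESC and 34 in TET_KO EpiLC, with 38 in DNMT_WT ESC and 21 to 32 in the rest. The nearest promoters were the potassium channel gene Kcnk18 at -238 kb and Rab11fip2, a gene of vesicle transport, at 486.6 kb. Kcnk18 differed between TET_KO and TET_WT by -0.04 in ESC and 0.35 in EpiLC, and Rab11fip2 by 1.00 and 0.24. Each rests on only 4 contacts.

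**Figure D4:**
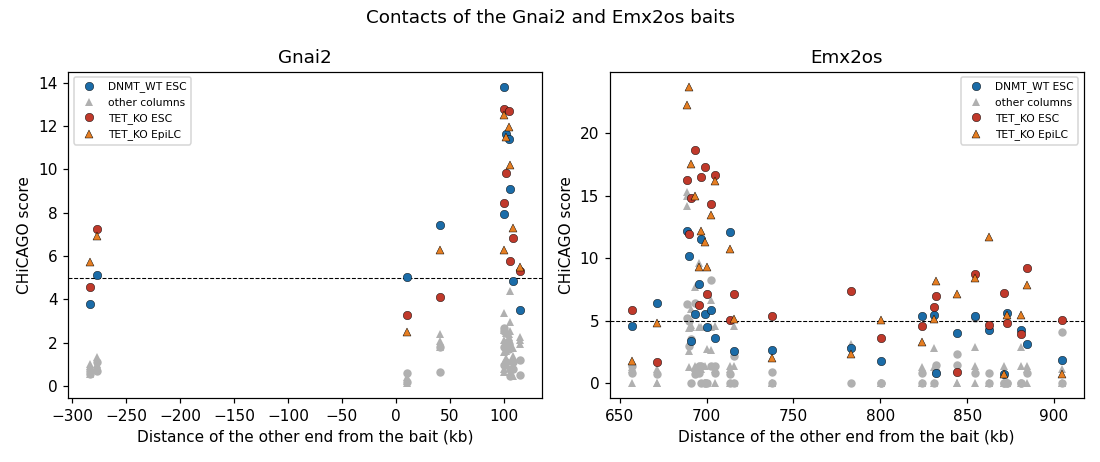
CHiCAGO score (vertical axis) of each listed contact of the Gnai2 and Emx2os baits against the distance of its other end in kb; red circles are TET_KO ESC, orange triangles TET_KO EpiLC, blue circles DNMT_WT ESC, grey the other 5 columns, and the dashed line is a score of 5. For Gnai2 the blue points lie among the red and orange, with 8 of 11 at 5 or more, and for Emx2os 13 of 28 do.

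Cntnap5c encodes a contactin-associated protein of the neurexin superfamily, a family of neuronal adhesion proteins. Its bait is chr17:57768415-57770778 (2.36 kb). In TET_KO the promoter value was 2.33 in ESC and 2.60 in EpiLC. It was 0.62 and 1.18 in TET_WT, 1.50 and 1.39 in DNMT_WT, and 1.12 and 1.71 in DNMT_KO, in ESC and EpiLC. TET_WT ESC was the lowest, and the other columns lay between it and TET_KO. TET_KO exceeded TET_WT by 1.72 in ESC and 1.42 in EpiLC.

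Of the 12 Cntnap5c contacts, 10 lay in a block of 81.4 kb, chr17:58825193-58906566, and 7 of these other ends were in Pdzph1. At 5 or more were 6 contacts in TET_KO ESC and 10 in TET_KO EpiLC, 5 in DNMT_KO EpiLC, 3 in DNMT_WT EpiLC, 2 in DNMT_WT ESC, 1 in TET_WT EpiLC and 0 in TET_WT ESC and DNMT_KO ESC. The contact at 1105 kb had the highest TET_KO EpiLC score, 15.1, with 8.47 in TET_KO ESC and 7.16 in DNMT_WT ESC. It was 5.39 in DNMT_WT EpiLC, 4.67 in TET_WT EpiLC, 3.14 in DNMT_KO ESC, 1.66 in DNMT_KO EpiLC and 0.19 in TET_WT ESC. Near Cntnap5c, 18 of 19 promoters within 1 Mb were higher in TET_KO at both stages, against 32.6% of all promoters. Their median difference was 0.55. As around Rheb, neighbouring baits do not count as separate observations. The nearest promoter on one side was Emr1, which encodes the macrophage marker F4/80, at -405 kb. It had 1.30 in ESC and 0.91 in EpiLC, on only 4 contacts. On the other side the nearest promoter with a value was Man2a1, a Golgi mannosidase gene, 6830 kb away, with 0.41 and 0.42.

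Slitrk3 encodes a transmembrane protein that organises inhibitory synapses. Its bait, chr3:73055478-73056983, is short (1.51 kb, longer than 6.1% of baits). Its promoter value was 1.66 in TET_KO ESC and 2.40 in TET_KO EpiLC. It was 0.57 and 1.18 in TET_WT, 1.09 and 0.87 in DNMT_WT, and 0.39 and 1.03 in DNMT_KO, in ESC and EpiLC. TET_KO ESC exceeded the nearest other column, TET_WT EpiLC, by 0.48. The difference between TET_KO and TET_WT was 1.09 in ESC and 1.22 in EpiLC.

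The Slitrk3 contacts were the most distant. Of 20, 17 lay in a block of 119.2 kb, chr3:69984599-70103758, about 3 Mb away, where 2 other ends overlapped Otol1, the gene of the inner ear protein otolin, and 15 no gene. The contact at -3011 kb scored 12.0 in TET_KO ESC, 11.9 in TET_KO EpiLC, 7.74 in DNMT_WT ESC, 2.48 in TET_WT EpiLC and 0 in the rest. The contact at -2953 kb was less specific, with 12.1 and 14.5 in TET_KO, 9.91 in DNMT_WT ESC, 4.47 in DNMT_KO ESC, 6.28 to 6.69 in the other EpiLC columns and 0 in TET_WT ESC. The scores in TET_KO ESC took few levels: 5 lay between 5.88 and 5.93 and 3 between 12.0 and 12.1. The number of read pairs behind a score was not analysed here. The only contacts within 1 Mb, at -832 and -369 kb, did not reach 5 in TET_KO. Their TET_KO scores ran from 0.31 to 3.28, and they reached 5.34 in TET_WT ESC and 7.32 in DNMT_KO EpiLC. The neighbours of the bait were 1110032A04Rik at -3196 kb, with a TET_KO difference of 0.21 in ESC and -0.84 in EpiLC, and AC131665.1 at 91.1 kb, with 0.34 and 1.10.

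1810030J14Rik, now named Mptx1, encodes a mucosal pentraxin, a protein known from the intestinal lining. Its bait is chr1:174329641-174330579 and is very short (0.94 kb, longer than 2.4% of baits). Its promoter value was 3.18 in TET_KO ESC and 2.84 in TET_KO EpiLC, the highest of the 7. It was 0.97 and 0.48 in TET_WT, 0.85 and 2.13 in DNMT_WT, and 2.14 and 1.71 in DNMT_KO, in ESC and EpiLC. Outside TET_KO the columns were of 2 kinds, 3 below 1 and 3 above 1.7. TET_KO exceeded TET_WT by 2.21 in ESC and 2.36 in EpiLC, and DNMT_KO exceeded DNMT_WT by 1.29 in ESC and differed by -0.42 in EpiLC.

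Of the 19 contacts, 18 lay in a block of 225.0 kb at chr1:173104256-173329211, just over 1 Mb from the bait. The other ends overlapped the olfactory receptor genes Olfr1408, Olfr1406 and Olfr1404 once each, no gene at 12, and Mptx2 at 3. Mptx2 is the second mucosal pentraxin gene, and whether reads of the gene pair can be told apart in these data was not tested, so its values are uncertain. The Mptx2 fragment at -1055 kb had the highest TET_KO ESC score of the bait. It scored 34.1 in TET_KO ESC, 34.8 in TET_KO EpiLC, 37.4 in DNMT_WT EpiLC, 29.6 in DNMT_KO ESC and 23.2 in DNMT_KO EpiLC. It was lower in DNMT_WT ESC (8.05), TET_WT ESC (9.68) and TET_WT EpiLC (12.1), yet at 5 or more in all 8 columns. Some contacts away from Mptx2 were high in TET_KO alone. The contact at -1031 kb scored 14.8 and 5.82 in TET_KO and at most 2.26 elsewhere, and the one at -1091 kb 9.73 and 4.94 against at most 1.67, with no score in TET_WT EpiLC. The single contact with another chromosome reached 5.61 in TET_WT EpiLC and was listed at 0 in both TET_KO columns. The neighbours of the bait were Olfr427, an olfactory receptor gene at -231 kb, and the formin gene Fmn2 at 175.3 kb. Their TET_KO differences were 0.27 and 0.88 on only 4 contacts, and -0.24 and -0.52 on only 3.

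**Figure D5:**
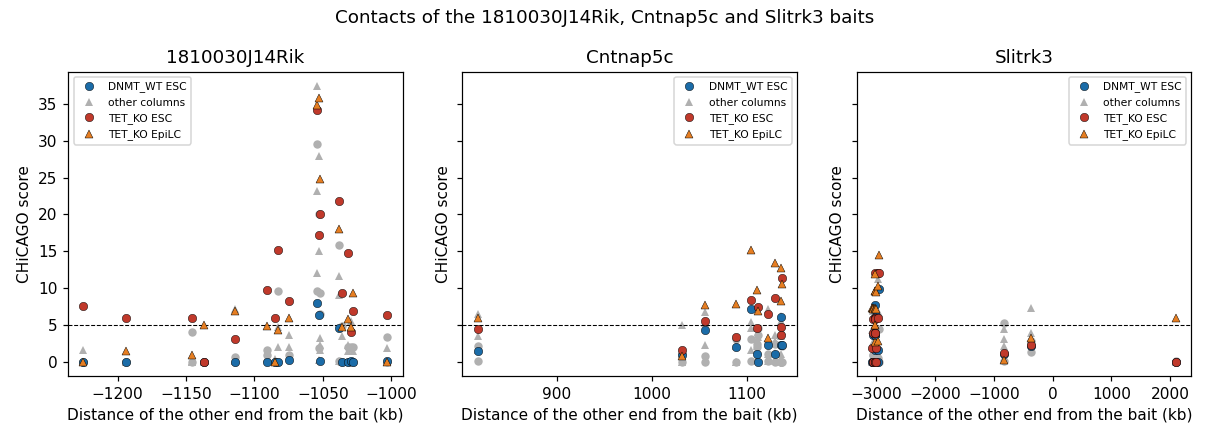
CHiCAGO score (vertical axis, shared) of each listed contact on the same chromosome of the 1810030J14Rik, Cntnap5c and Slitrk3 baits against the distance of its other end in kb; red circles are TET_KO ESC, orange triangles TET_KO EpiLC, blue circles DNMT_WT ESC, grey the other 5 columns, and the dashed line is a score of 5. Nearly all contacts lie about 1 Mb away for the first 2 baits and about 3 Mb away for Slitrk3, and grey points reach 37.4 at Mptx2.

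The DNMT lines, whose values played no part in the choice, gave no common direction. Their values rest on the listed contacts, of which 93 of 139 reached 5 in a TET_KO column and in no other. Over all baits 14.2% of contacts did. The count was 26 of 26 at Gm15552 and 22 of 23 at Rheb, so a small DNMT difference there says little. The shares of all promoters given here come from contacts listed less often in this way. In ESC, DNMT_KO lay below DNMT_WT by more than 0.693 at 3 of the 7 baits, Gnai2 (-1.58), Emx2os (-1.10) and Slitrk3 (-0.70), against 2.14% of all 15677 promoters with a value (3.43% without scaling of the columns). The count was 2 with missing scores set to 0, where Slitrk3 had -0.67, against 3.03% of promoters. It was 4 when contacts at 5 or more were counted, where Cntnap5c was added, against 21.0% of promoters. The limit there was a difference of 1 in log2 of the count plus 1, in place of 0.693. DNMT_KO lay above DNMT_WT by more than 0.693 in ESC at 1, 1810030J14Rik (1.29), against 2.09% (2.0% without scaling). In EpiLC no bait passed that difference in either direction, against 1.35% up and 1.15% down, and the values ran from -0.42 to 0.32. None of the 7 passed it in the same direction at both stages, against 0.134%. For TET_KO against TET_WT, all 7 baits passed it upwards at each stage, as chosen, against 3.37% in ESC and 3.6% in EpiLC. Each of these is 1 column minus 1 column and has no test.

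The parental lines also differed at several of these promoters. TET_WT ESC lay below DNMT_WT ESC by more than 0.693 at Gnai2 (-1.52), Emx2os (-1.41) and Cntnap5c (-0.89), against 1.95% of promoters. TET_WT EpiLC lay below DNMT_WT EpiLC at 1810030J14Rik (-1.65), against 2.58%. At Rheb and Gm15552 the parental lines were within 0.11 of each other at both stages. Nearly all contacts there were listed through TET_KO alone and the parental columns lay near the floor, so this closeness says little. The choice of members favoured low values in TET_WT, so these differences are a description. For Rheb and Gm15552, TET_KO stood above both parental lines alike; for Gnai2 and Emx2os it passed that difference from DNMT_WT in EpiLC but not in ESC.

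Over all promoters, 141 (0.899%) were higher in TET_KO than in TET_WT by more than 0.693 at both stages. Of these, 12 (8.51%) were also lower in DNMT_KO than in DNMT_WT in ESC by that much, which is 3.58% of the 335 such promoters, and 3 of the 12 were Gnai2, Emx2os and Slitrk3. In EpiLC 2 of the 141 were lower in DNMT_KO. Ranked by the mean TET_KO difference among promoters with at least 10 usable contacts, 1810030J14Rik, Gm15552, Rheb, Emx2os, Cntnap5c and Gnai2 took the first 6 places, from 2.28 down to 1.52, and Slitrk3 the tenth with 1.15. Mir146 (1.43), 1700001L19Rik (1.26) and Gm4956 (1.19) stood between them, and Dclk3 (1.10) just after.

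From ESC to EpiLC none of these promoters passed the test between stages. The SE of that test is moderated by limma towards a trend over all promoters, so it is not the spread of a bait's own 4 lines. The stage difference itself was not ranked in the choice, but the choice used the TET columns of both stages. At Rheb 22 of 23 contacts, and at Gm15552 26 of 26, reached the calling threshold in a TET_KO column and in no other. The other lines thus lay near the floor there at both stages, and a lack of stage change at these baits is partly fixed in advance. With limma and Benjamini-Hochberg adjustment over all 15677 promoters, 0 of the 7 baits passed 0.05, against 8.87% of promoters, and 0 had an unadjusted p under 0.05, against 27.6%. Rheb differed by -0.03 ± 0.28 (limma SE over 4 lines, adjusted p = 0.959), Gm15552 by -0.12 ± 0.27 (0.819) and 1810030J14Rik by 0.01 ± 0.22 (0.986). At Gm15552 the lines changed by -0.15 (DNMT_WT), -0.06 (DNMT_KO), -0.11 (TET_WT) and -0.15 (TET_KO), closer together than that SE. Emx2os differed by -0.32 ± 0.20 (0.322) and Gnai2 by -0.34 ± 0.22 (0.331). Slitrk3 differed by 0.44 ± 0.25 (0.255) and Cntnap5c by 0.33 ± 0.18 (0.256). Of the 116 contacts with a score in every column, 0 passed after adjustment, against 0.205% of all contacts, while 10 had an unadjusted p under 0.05, against 16.5%. The lowest adjusted p, 0.0998, belonged to a Cntnap5c contact. A p that misses the threshold does not show that the stages were alike.

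The line DNMT_WT moved most between the stages at several baits. From ESC to EpiLC it fell by 1.48 at Gnai2 and by 1.10 at Emx2os, where the other 3 lines moved by -0.08 to 0.16 and by -0.12 to 0.06. At 1810030J14Rik it rose by 1.28 in value while the others moved by -0.48 to -0.34. Nearly all contacts of that bait lie over 1 Mb away. Over all baits, the share of such contacts at 5 or more rose in each line. The rise was largest in DNMT_WT, from 10.0% in ESC to 33.5% in EpiLC. Without DNMT_WT, Gnai2 changed by 0.04 (adjusted p = 0.919), Emx2os by -0.06 (adjusted p = 0.895) and 1810030J14Rik by -0.41 (adjusted p = 0.086). At Rheb and Gm15552 no line moved by more than 0.15.

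The patterns most like the mean of the 7 baits over the 8 columns were those of Gm4956, Mir146 and 1700001L19Rik, with root mean square differences of 0.27, 0.29 and 0.31 after centring. Gm4956 had 2.00 and 1.95 in TET_KO and 0.70 to 1.23 in the other 6 columns. Mir146, which encodes a microRNA, had 1.56 and 2.16 against 0.04 to 0.57, the nearest to the split seen at Rheb. 1700001L19Rik had 2.42 and 2.70 against 0.88 to 1.72.

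Few relatives of these genes had the TET_KO gain, as was so for promoters at large, of which 0.899% were higher by 0.693 at both stages. Counts of 0 in lists this short are near that share. Of 12 genes of the mTORC1 pathway around Rheb, 11 had a value; none of the other 10 was higher by 0.693 at both stages, and their mean TET_KO difference had a median of 0.04, from -0.46 to 0.29. Rhebl1, the closest relative of Rheb, differed by 0.08, Tsc2, whose product switches Rheb off, by 0.14, Mtor, the kinase itself, by 0.29 and Rptor, its scaffold partner, by 0.27. Of 8 other G protein alpha subunits with a value, none was higher at both stages and the median was 0.04, with 0.22 for Gnai3, -0.06 for Gnaz, 0.13 for Gnas and 0.13 for Gnaq. The range was from -0.67 to 0.22, and the lowest was Gna13, named after its values were seen, with -0.94 in ESC and -0.40 in EpiLC. Over all promoters the median was 0.

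Genes of forebrain patterning with a value were all higher in TET_KO on the mean of both stages, the lowest only slightly. The share of all promoters with a mean above 0 was not counted. Among the other genes of the neuronal adhesion families, only Cntnap5a was higher by 0.693 at both stages. The mean TET_KO difference of the forebrain genes had a median of 0.38, from 0.07 to 0.82, against a median of 0 over all promoters. Of the 6 forebrain genes with a value, 1 was higher by 0.693 at both stages (0.899% of all promoters were), Nr2f1, with 0.76 in ESC and 0.89 in EpiLC. Pax6, which patterns the dorsal forebrain and eye, differed by 0.74 on the mean of both stages and Lhx2 by 0.15. Among contactin-associated proteins, Cntnap5a was higher by 1.02 and 1.27 on only 5 contacts, while Cntnap5b (-0.29), Cntnap1 (-0.13), Cntnap3 (0.00) and Cntnap4 (0.22) were not. Slitrk5 and Slitrk6 differed by -0.15 and 0.01. Tet2 and Tet3, targeted in the line, differed by -0.24 and 0.30.

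Of the listed relatives, Cntnap1 alone passed the test between stages and was higher in EpiLC by 0.55 ± 0.11 (limma SE over 4 lines, adjusted p = 0.014). For the lists, 0 of 11 mTORC1, 0 of 9 G protein, 0 of 6 forebrain, 0 of 3 Slitrk and 1 of 6 contactin-associated promoters passed, with 0 of 2 Tet promoters, against 3.73% of all promoters up and 5.14% down. Since the Rheb, Gnai2, Cntnap5c and Slitrk3 baits are in these counts, they are not separate support for the values above.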

How the data were processed

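The 16 samples are 2 for each of 4 lines at 2 stages. Per the submitters' processing notes, trimming used Trim Galore 0.6.5 with cutadapt 2.3 and the build was GRCm38. The authors deposited CHiCAGO scores, 1 column per group. The aligner, the version of CHiCAGO and the way samples were combined were not given in the sources used here. Depth per sample is unknown.

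Baits were matched by name, without transcript suffixes. Scores were quantile-normalised between columns and the mean asinh was taken over a bait's contacts with all 8 scores, for baits with at least 3; the 23 contacts of the members with a missing score stayed out of this mean. EpiLC was compared with ESC with limma 3.58.1 in R 4.3.3 (lmFit, eBayes with trend, line as a block, Benjamini-Hochberg at 0.05), checked on simulated data. Each knock-out line derives from a parental line, so the lines are not fully independent. Knock-out differences are 1 column minus 1 column, without a test. A destination block is the longest run of other ends at 5 or more in a TET_KO column without a gap over 200 kb. Windows of 5 Mb, planned for the surroundings, held bait and block together, so 500 kb around the bait was used. Named are the members, the nearest promoters, the 3 most similar promoters, up to 4 genes per list (5 contactin-associated proteins) and those past the stage threshold; Dclk3, Mir146, 1700001L19Rik and Gm4956 stand near Slitrk3 in the ranking. 1 further gene of a list is not reported here. The members and lists were chosen with earlier results of these data known. Alternatives were scaling, missing scores, distance, summary, score threshold and leaving out a line.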

Additional observations from a re-analysis of the deposited data

Results flagged for a closer look

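In 4 of the 7 promoters the change from ESC to EpiLC in DNMT_WT stood far from that in the other 3 lines, by the gap to the nearest line set against the whole range. DNMT_WT changed by 1.28 at 1810030J14Rik, where the other lines lay between -0.48 and -0.34. It changed by -1.48 at Gnai2, where they lay between -0.08 and 0.16, and by -1.10 at Emx2os, where they lay between -0.12 and 0.06. At Slitrk3 it changed by -0.22, against 0.61 to 0.74. Chance marks about 1 in 20 such groups of 4 independent values. The share of all promoters marked by this rule was not counted, so whether these baits stand out is unknown. The distant line was DNMT_WT each time, and all 4 values rest on the same DNMT_WT columns. The cause was not tested.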

How the results depend on the processing

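No paired analysis was possible because the columns carry no replicate number; the stage comparison pairs the stages by line. All 7 baits were higher in TET_KO by 0.693 at both stages under every alternative except contacts within 1 Mb only, where 4 baits had a value and all 4 were. DNMT_KO passed the difference in the same direction at both stages at 0 baits. The number was 1 when contacts at 5 or more were counted, where the limit was 1 in log2 of the count plus 1. Contacts at 5 or more summed to 191 over the TET_KO columns and 75 over the other 6; at a score of 7 they were 119 and 38, at 10 they were 55 and 20, and at 3 the other 6 had 133. Within 500 kb, 18 contacts were local.

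Of 81 alternatives of the stage change of single baits, 72 kept direction and side of the threshold and 9 turned the direction of a value past no threshold; the cause was not tested. 1810030J14Rik changed by -0.19 with contact numbers and -0.09 with missing scores at 0. Leaving out 1 line gave it -0.41 (without DNMT_WT) to 0.17, Rheb -0.07 to 0.00 (0.00 without DNMT_WT) and Gnai2 -0.51 to 0.04 (without DNMT_WT). Rheb changed by 0.04 without scaling, 0.03 with columns divided by their mean, 0.35 with contact numbers and 0.02 with the median. The lowest adjusted p in any of them was 0.086. Over all promoters, stage calls by limma numbered 1391, with 1559 within 1 Mb, 793 in the DNMT lines only, 707 with missing scores at 0, 619 with the median, 21 without the contact minimum and 0 with contact numbers (2973 at an unadjusted p under 0.05). Without scaling, promoters past 0.693 numbered 796 higher and 237 lower in TET_KO ESC in place of 529 and 353. Leaving out a line gave 25 (DNMT_KO) to 615 (DNMT_WT) calls. The unknown depth limits every single column.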
